A study of Rattus norvegicus with 18 samples.

Results

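Rapid pacing of neonatal rat ventricular cardiomyocytes was compared with pacing at a normal rate. Myocytes stimulated at 8 Hz for 3 h with no inhibitor (tachycardia, TC, 3 arrays) were set against myocytes stimulated at 1 Hz for the same 3 h (control, 3 arrays). The comparison took every transcript cluster of the Rat Gene 2.0 ST array that carries exactly 1 gene symbol, and for each gene the brightest such cluster, which gave 14557 genes from 14824 of the 36685 clusters. No measured difference between TC and control entered this choice.

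The cells of both groups came from the ventricles of newborn Wistar rats, were kept in culture for 3 days before treatment, carried no genetic modification named in the labels, and were paced by electrical field stimulation. The culture was enriched for myocytes and not pure, so the arrays cannot tell which cells a signal came from, and fewer cells of a type and less RNA per cell cannot be told apart. Each array held RNA pooled from technical replicates, 4 for replicate 1, 3 for replicate 2 and 6 for replicate 3 in TC and in control alike. The same series holds 3 arrays of 8 Hz pacing with 10 µM KB-R7934 (the labels' spelling), which inhibits the sodium-calcium exchanger NCX in its reverse mode. These arrays entered the fit only for the spread. The series also holds a stretch experiment (ST) with its own static control.

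Each beat of a cardiac myocyte begins with sodium and calcium entry through membrane channels and ends when calcium is pumped back into stores or out of the cell. A higher rate raises the calcium and sodium load and the use of ATP. Calcium-dependent kinases and phosphatases carry such signals to the nucleus, where immediate early genes, which need no new protein for their induction, are usually the first to respond. A load on protein folding is answered by heat shock factors, which induce cytosolic chaperones.

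Over all 14557 genes the 2 groups lay close together. The values are log2 expression, so a difference of 1 is a 2-fold change. The median size of the TC minus control difference was 0.09 on the log2 scale, below the median standard error (SE) of 0.15, and 48.1% of genes had the higher mean in TC. No cluster passed an adjusted p of 0.05 by limma (0 of 36685, smallest adjusted p = 0.9999 with Benjamini-Hochberg correction), nor by the methods' t-test or a two-way model of group and replicate number, factors chosen here because the methods name none. At an unadjusted p under 0.05 limma gave 399 genes (2.74%), the t-test 555 and the two-way model 872, where 5% of genes, or 728, are expected with no effect. The limma count lay below that expectation, and the genes named here describe 3 arrays against 3.

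Genes were counted at an unadjusted p under 0.05 together with a change of at least 1.2-fold. Both limits come from a figure legend of the study that does not say whether its p was corrected, while the methods name a Benjamini-Hochberg correction for the arrays, so the counts here are of unadjusted calls. Counted in this way by limma were 377 genes (2.59%), 230 higher in TC (1.58%) and 147 lower (1.01%). Dim genes made up most of them. Among the 5810 genes whose mean lay under the median of all clusters (5.29 on the log2 scale), 236 were counted (4.06%, 165 higher and 71 lower), against 141 of 8747 brighter genes (1.61%, 65 higher and 76 lower). At or above the upper quartile of clusters (7.15) 44 of 4953 genes were counted (0.888%). Only 28 of the counted genes changed at least 1.5-fold and 2 at least 2-fold. The 3 TC arrays lay above the 3 control arrays for 626 genes (4.30%) and below them for 588 (4.04%). The 377 became 566 without TC replicate 2 and 569 without TC control replicate 2, and 218 and 242 genes were in both sets.

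**Figure D1:**
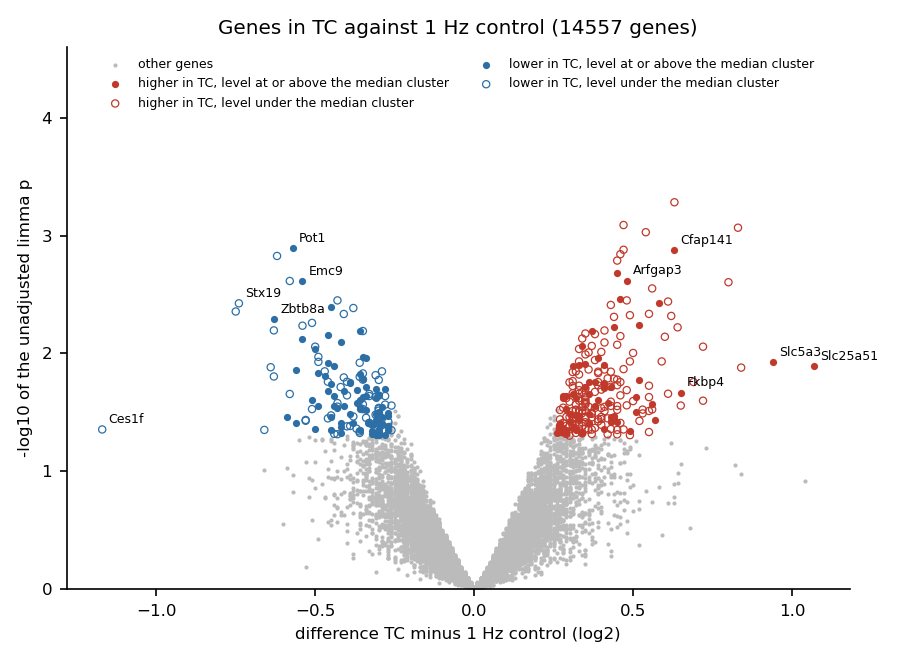
Each point is 1 of 14557 genes, placed by its TC minus 1 Hz control difference (log2, x axis) and the -log10 of its unadjusted limma p (y axis), with the genes at this threshold in red (230 higher in TC) and blue (147 lower) and filled where the level reached the median cluster. All but 2 counted genes lie within 1 unit of 0, and open symbols for dim genes are common among the genes that stood higher.

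Of the 141 brighter genes at the threshold, 114 had TC and control arrays that did not overlap, 53 higher and 61 lower. Over all genes the share was 4.30% higher and 4.04% lower. A small p with 3 arrays a group favours groups that do not overlap, so the 114 are no separate support. The 12 with the smallest p in each direction are described here, all of them chosen by p, so that their spread is smaller than that of most genes. The largest of the higher ones was Slc5a3, the sodium-dependent carrier that brings myo-inositol into the cell. It had 7.29, 7.30 and 8.15 in TC, against 6.75, 6.90 and 6.29 in control, a difference of 0.94 (SE 0.30, limma unadjusted p = 0.0118). TC replicate 3 accounts for the width of the TC values, and the lowest TC array stood clear of the highest control array. A second transporter, Slc25a51, which carries NAD into mitochondria, lay outside the 12 by its p and had the largest positive difference of all counted genes at 1.07 (SE 0.34). Its TC arrays were close together at 9.06, 9.06 and 9.30, while its control arrays spread over 7.26, 8.05 and 8.90.

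Arfgap3, a GTPase-activating protein that acts on ARF1 at the Golgi, had 7.63, 7.61 and 7.39 in TC, against 7.13, 7.08 and 6.99 in control, a difference of 0.48 (SE 0.11, unadjusted p = 0.00241). Ube2g2 encodes a ubiquitin-conjugating enzyme of endoplasmic reticulum-associated degradation and stood 0.35 (SE 0.11) higher, with 7.75, 7.72 and 7.83 in TC against 7.28, 7.57 and 7.39 in control. Without TC control replicate 1 Ube2g2 was no longer counted. The secreted glycoprotein gene Pradc1 stood 0.44 (SE 0.12) higher. In the list of 35 Golgi and vesicle transport genes, 28 were measured, 1 was counted higher (Arfgap3) and 1 lower (7.14%, all genes 2.59%), and the list's median was -0.02 beside -0.01 for all genes.

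Foxq1, a forkhead transcription factor, had 5.81, 6.05 and 5.95 in TC, against a narrow 5.49, 5.47 and 5.48 in control, a difference of 0.45 (SE 0.11, unadjusted p = 0.00209). Sox11, a SoxC transcription factor of developing tissues, stood 0.39 (SE 0.12) higher, and Banp, a nuclear DNA-binding regulator, 0.37 (SE 0.11). Cfap141, named as a cilia and flagella associated protein, had the smallest p of the higher genes (0.63, SE 0.14, unadjusted p = 0.00132), with 6.60, 6.57 and 6.73 in TC against 5.94, 6.08 and 6.00 in control. The centrosomal gene Cep19 stood 0.34 (SE 0.10) higher. Lims2, which encodes the focal adhesion adaptor PINCH2, stood 0.52 (SE 0.14) higher, and Gtpbp3, which modifies mitochondrial tRNA, 0.58 (SE 0.15) higher.

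On the lower side the smallest p belonged to Pot1, which binds the single-stranded end of telomeres. It had 6.21, 6.33 and 6.22 in TC, against 6.76, 6.71 and 7.00 in control, a difference of -0.57 (SE 0.12, unadjusted p = 0.00128). The gap between the groups was wider than the spread in either. Fancl, the ubiquitin ligase of the Fanconi anaemia DNA repair pathway, differed by -0.50 (SE 0.15), with 6.53, 6.98 and 6.50 in TC against 7.34, 7.12 and 7.04 in control. The lists of genes for DNA replication and of p53 targets held 0 counted genes.

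Qprt, which makes the NAD precursor nicotinate mononucleotide from quinolinate, had 5.66, 5.44 and 5.60 in TC, against 6.39, 6.00 and 5.92 in control, a difference of -0.54 (SE 0.16, unadjusted p = 0.0075). Emc9, a subunit of the complex that inserts membrane proteins into the endoplasmic reticulum, stood at -0.54 (SE 0.13). Dtd2, which clears mischarged tRNA, stood at -0.45 (SE 0.12), and Nanp, a phosphatase of sialic acid synthesis, at -0.46 (SE 0.15). Med4, a subunit of the Mediator complex, had a small difference with a narrow spread, 6.87, 7.03 and 6.88 in TC against 7.19, 7.34 and 7.32 in control (-0.35, SE 0.11). The ubiquitin ligase gene Wwp2 was at -0.36 (SE 0.10). The zinc finger genes Zbtb8a and Zfp267 were at -0.63 (SE 0.17) and -0.42 (SE 0.12), Tex9 at -0.46 (SE 0.13) and Angel1, related to deadenylases, at -0.34 (SE 0.11). Each of these 12 lower genes stayed counted when any 1 TC or control array was left out.

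**Figure D2:**
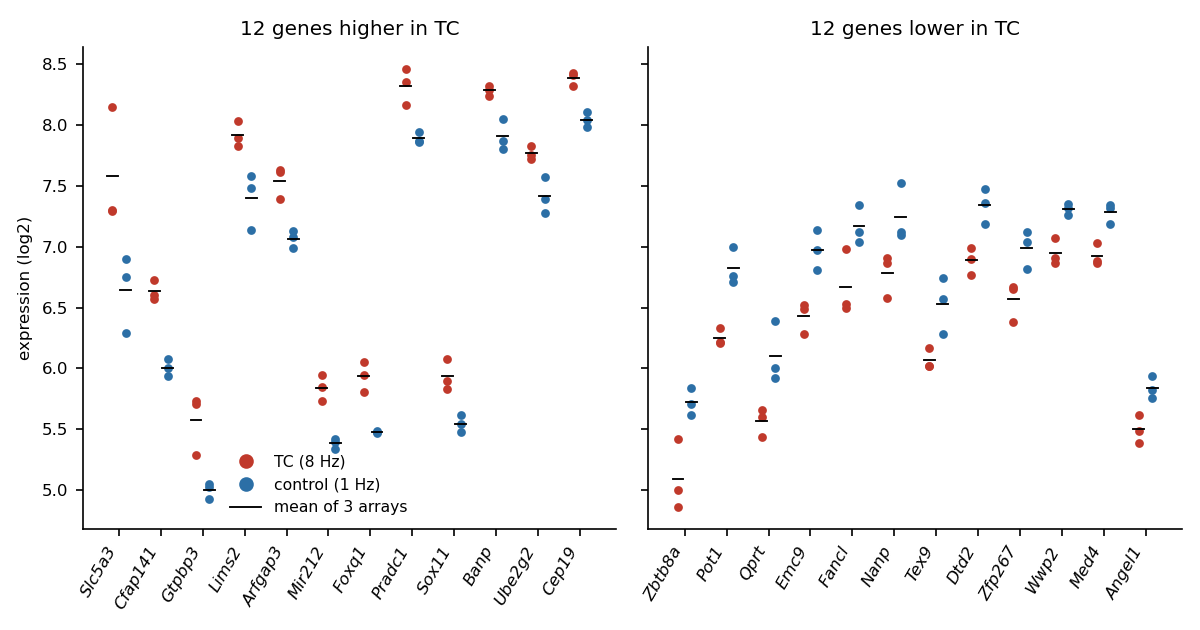
Log2 expression (y axis) of the 12 higher and 12 lower genes in each array, with TC (8 Hz, red) left of control (1 Hz, blue) and a line at the mean of 3 arrays. In no gene do the colours overlap, which the choice of the genes required, and the widest group is Slc5a3 in TC, with 1 array at 8.15 and the others near 7.3.

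Among the largest differences at any level most genes were dim. Ces1f, a carboxylesterase, had the largest negative one (-1.17, SE 0.50), with 2.73, 3.37 and 2.89 in TC against 3.45, 5.37 and 3.67 in control. TC control replicate 2 carried much of it, and without that array, or without TC replicate 1 or 3, Ces1f was not counted. The syntaxin gene Stx19 stood at -0.74 (SE 0.19), Slco1a4, an organic anion transporter, at -0.66 (SE 0.28), Napb, which encodes beta-SNAP of vesicle fusion, at -0.64 (SE 0.21), and the cytidine deaminase gene Apobec1 at -0.63 (SE 0.18). Higher among the dim genes were Btnl5, a butyrophilin-like gene, at 0.84 (SE 0.27) and Nalf2, an auxiliary subunit of the sodium leak channel, at 0.64 (SE 0.18). All 7 had means under the median cluster. Btnl5 was not counted without TC replicate 2, Napb without TC replicate 1, nor Slco1a4 without replicate 2 or 3 of either group.

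Of the 5 marker genes of hypertrophy that the study followed, 3 were measured here, and these showed no difference beyond the spread. Acta1, skeletal alpha-actin, which the fetal programme brings back, had 11.15, 11.10 and 11.11 in TC, against 11.20, 10.99 and 11.15 in control (0.01, SE 0.10, unadjusted p = 0.945). The natriuretic peptide gene Nppa had 12.83, 12.36 and 12.59 in TC, against 12.76, 12.40 and 12.56 in control (0.02, SE 0.16). In both groups replicate 1 of Nppa was the highest and replicate 2 the lowest. Nppb stood at 0.10 (SE 0.10, unadjusted p = 0.363). The sign of Acta1 and of Nppa turned when TC replicate 1 (-0.01 and -0.10) or TC control replicate 2 (-0.06 and -0.07) was left out. Rcan1, Fhl1 and the exchanger gene Slc8a1 had no cluster with exactly 1 symbol and were not analysed here.

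The list of cytosolic heat shock proteins and co-chaperones had the largest median of 36 pathway lists. Of its 32 genes 26 were measured, 23 with a higher mean in TC, and their median difference was 0.34 (log2, all genes -0.01). Counted at the threshold were 2 of the 26 (7.69%), Fkbp4 and Hspb1, where 1.58% of all genes were counted higher. Fkbp4, a co-chaperone of HSP90, had 9.70, 10.09 and 10.32 in TC, against 9.06, 9.79 and 9.30 in control (0.65, SE 0.23, unadjusted p = 0.0215). Hspb1, a small heat shock protein, had 11.93, 12.05 and 12.28 in TC, against 11.54, 11.97 and 11.51 in control (0.41, SE 0.18, unadjusted p = 0.0435). In both genes TC control replicate 2 lay above TC replicate 1, so the groups overlapped.

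Genes with larger differences and a wider spread were not counted in this fit, which does not pair arrays by replicate number. Hspa1b, an inducible HSP70, had 7.99, 9.13 and 9.08 in TC, against 6.83, 8.96 and 7.29 in control (1.04, SE 0.60, unadjusted p = 0.12). It has a near-identical copy, Hspa1a, so the cluster's signal cannot be assigned to 1 of the 2. Dnajb1, which hands clients to HSP70, had 8.98, 9.95 and 9.76 in TC, against 8.24, 9.67 and 8.27 in control (0.84, SE 0.47). Hsph1, a nucleotide exchange factor for HSP70, had 10.75, 11.56 and 11.60 in TC, against 10.06, 11.34 and 10.05 in control (0.82, SE 0.43). Bag3, the HSP70 co-chaperone of chaperone-assisted autophagy, stood at 0.49 (SE 0.27). The order of arrays recurred in these genes, with TC replicates 2 and 3 and TC control replicate 2 high and TC replicate 1 between them and the other controls. Small heat shock proteins abundant in resting muscle differed little, Cryab by 0.08 (SE 0.09), Hspb6 by -0.04 (SE 0.11) and Hspb7 by -0.08 (SE 0.19). The factors themselves, Hsf1 and Hsf2, differed by 0.09 (SE 0.12) and 0.01 (SE 0.13).

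As the median deviation of the 26 genes from their own means, the TC arrays stood at -0.01, 0.26 and 0.31, and the control arrays at -0.36, 0.15 and -0.33. TC control replicate 2 therefore lay among the TC arrays, and its part in the result was read by leaving it out: the count was then 15 and the median 0.56. The count was 7 without TC replicate 1 and 0 in the 4 cases that left out another array, while the median lay between 0.23 and 0.56 in all 6 cases. The counts over all genes moved as well. They were 569 without TC control replicate 2, 452 without TC replicate 1 and 280 to 566 in the other 4 cases, against 377 with every array. With the replicate number as a block 12 of the 26 were counted, where 546 of all 14557 genes were, and Hspa1b (unadjusted p = 0.0158), Dnajb1 (0.0186), Hsph1 (0.0197) and Bag3 (0.0141) were among them. Whether the numbers pair the arrays is not settled by the labels.

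The promoters of these genes are shown because heat shock factors recognise a simple sequence, short GAA units in alternating direction. RefSeq (GRCr8) gave promoter windows around the start site for 20 of the 26 genes. Runs of 3 units (GAANNTTCNNGAA or TTCNNGAANNTTC, which are the same letters read on opposite strands) were present in 3 of the 20 genes (15%). These were Hsph1, Chordc1 and Dnaja1. Over all 33469 windows, counted as windows and not as genes, the share was 0.798%. Pairs of units (GAANNTTC or TTCNNGAA, which read the same on both strands and lie inside every run of 3) were present in 13 of 20 (65%), and in 15.9% of all windows. The stretches below run 5′ to 3′ on the gene's strand, up to the base before the start site at most, with the matched units in capitals.
Hsph1 (chr12:10427302-10427367, plus strand): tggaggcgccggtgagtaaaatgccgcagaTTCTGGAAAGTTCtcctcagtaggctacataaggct
Dnajb1 (chr19:41431142-41431182, minus strand): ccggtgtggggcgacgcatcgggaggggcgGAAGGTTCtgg
Bag3 (chr1:192533298-192533365, plus strand): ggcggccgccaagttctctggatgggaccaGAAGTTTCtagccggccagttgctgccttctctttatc
Fkbp4 (chr4:163398018-163398085, minus strand): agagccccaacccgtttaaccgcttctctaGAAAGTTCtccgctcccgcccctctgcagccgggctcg
Hspb1 (chr12:26432373-26432460, minus strand): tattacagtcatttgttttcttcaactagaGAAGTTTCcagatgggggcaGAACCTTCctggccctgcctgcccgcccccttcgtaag
The run of 3 units in Hsph1 began 36 bases before the start site, and the pairs of Bag3 and Fkbp4 began 132 and 137 bases before it. The runs of Chordc1 and Dnaja1 lay after the start site. All genes shown had higher means in TC, and Hspb6, with a lower mean, held pairs as well. A match describes the letters only and no binding was measured.

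Immediate early genes gave a similar picture at a smaller size. Of 33 genes 27 were measured, 25 with a higher mean in TC, with a median of 0.23 (all genes -0.01), and 1 (3.7%) was counted, where 1.58% of all genes were counted higher. With the replicate block 3 were counted, where 546 of all 14557 genes were. The gene counted without the block was Arc, which in neurons follows synaptic activity. It had 6.21, 6.48 and 6.20 in TC, against 5.88, 6.12 and 5.66 in control (0.41, SE 0.14, limma unadjusted p = 0.0177). Arc was not counted without TC replicate 2 or without TC control replicate 3. Fos, a subunit of AP-1, had 7.80, 8.78 and 7.93 in TC, against 7.72, 8.42 and 7.26 in control (0.37, SE 0.41), and Egr1, a zinc finger factor of the same wave, 11.65, 12.24 and 11.83 in TC, against 11.47, 12.13 and 11.29 in control (0.27, SE 0.25). In both groups replicate 2 was the highest, and the difference between replicates of a group exceeded that between groups. Egr4 (0.48, SE 0.23), Atf3 (0.48, SE 0.41) and the orphan receptor gene Nr4a1 (0.37, SE 0.38) were not counted. As the median deviation of the list, TC arrays stood at -0.08, 0.42 and 0.05, and control arrays at -0.21, 0.26 and -0.43. Without TC control replicate 2 the list's median was 0.45 with 5 counted, where 569 of all genes were. Without TC replicate 2 or TC control replicate 3 the list's median was 0.07 with 0 counted, where 566 and 280 of all genes were.

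**Figure D3:**
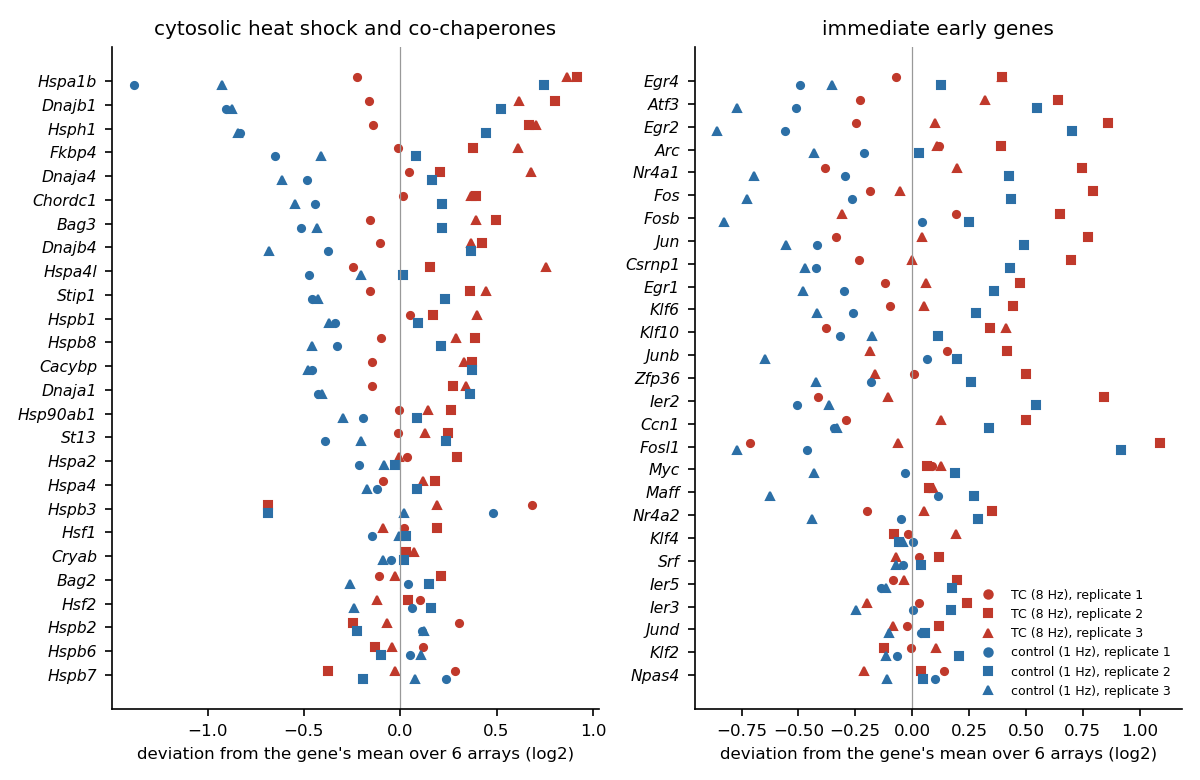
Values of each measured heat shock gene (left, 26) and immediate early gene (right, 27) in every array, as the deviation from the gene's mean over the 6 arrays (log2, x axis), with TC (8 Hz) in red above control (1 Hz) in blue and a symbol for each replicate number. The blue squares of TC control replicate 2 lie with the red symbols in most genes of both lists.

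Genes further along the calcium and kinase pathways were mostly at the level of all genes. The list of calcineurin, NFAT and MEF2 responsive genes had 3 of 9 higher means, a median of -0.07 and 0 counted. Among 14 measured CREB targets 1 was counted (7.14%, where 1.58% of all genes were counted higher), Bdnf, a neurotrophin, with 6.24, 6.13 and 6.32 in TC against 5.94, 5.81 and 5.75 in control (0.39, SE 0.14). Its groups did not overlap, and it was not counted without TC replicate 1 or 3 or TC control replicate 2 or 3. The phosphatases and Sprouty genes that restrain MAP kinases had 10 of 12 higher means and a median of 0.12, with 1 counted (8.33%). This was Dusp10, a phosphatase of p38 and JNK, with 9.25, 9.53 and 9.68 in TC against 8.94, 9.31 and 8.92 in control (0.44, SE 0.18). It was not counted without TC replicate 2 or 3 or TC control replicate 1 or 3.

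In the clock list 9 of 11 genes had higher means (median 0.11), where 48.1% of all genes did, and 1 was counted higher and 1 lower (18.2%, all genes 2.59%). Nfil3, a repressor at D-box elements, had 7.99, 8.06 and 8.21 in TC, against 7.49, 7.93 and 7.54 in control (0.43, SE 0.18, unadjusted p = 0.0375). Dbp, an activator at the same elements, had 6.99, 6.88 and 7.04 in TC, against 7.18, 7.15 and 7.38 in control (-0.27, SE 0.12, unadjusted p = 0.0445). Both had groups that did not overlap. The call of Nfil3 was lost without TC replicate 2 or 3 or TC control replicate 1 or 3, and that of Dbp without any single array other than TC control replicate 2. Per2, a repressor of the core clock, stood at 0.31 (unadjusted p = 0.0554).

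A further 3 lists held 1 counted gene each, where 1.58% of all genes were counted higher. These were SRF and YAP targets (1 of 15 measured, 6.67%), hypertrophic growth factors and receptors (1 of 30, 3.33%) and cell death regulators (1 of 18, 5.56%). Ccn2, the matricellular connective tissue growth factor and a target of YAP and SRF, had 11.72, 11.58 and 11.70 in TC, against 11.50, 11.46 and 11.24 in control (0.27, SE 0.11). Agt, angiotensinogen, stood at 0.36 (SE 0.14), and Hrk, a pro-apoptotic BH3-only protein, at 0.31 (SE 0.13), with a level of 4.85 that is under the median cluster. Each of these 3 calls was lost in at least 3 of the 6 cases in which 1 array was left out, Ccn2 and Hrk without TC control replicate 2 or 3 among them and Agt without either replicate 1 or TC control replicate 2.

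The remaining lists are given by counts. Of 717 list genes measured, 13 were counted (1.81%, all genes 2.59%), and 27 of the 36 pathway lists held none. The integrated stress response had 21 of 24 higher means (median 0.12) and 0 counted, led in size by Ppp1r15a, a regulatory subunit of eIF2alpha phosphatase, at 0.46 (unadjusted p = 0.246). Its median was 0.04 without TC replicate 2 (16 of 24 higher), and 0.22 without TC replicate 1 and 0.20 without TC control replicate 2, with 2 counted in each. Genes of mitosis and G2/M had 24 of 25 lower means (median -0.14) and 0 counted, with Ccnb1, cyclin B1, at -0.42 (unadjusted p = 0.221). Without TC replicate 1 that median was 0.08 with 18 of 25 higher means, and without TC replicate 2 it was -0.37 with 2 counted lower. With the replicate block 2 of the stress response genes and 3 of the mitosis genes were counted, where 546 of all 14557 genes were. Of all genes 452 were counted without TC replicate 1, 566 without TC replicate 2 and 569 without TC control replicate 2. Fatty acid oxidation and PPAR genes had 28 of 34 lower means (median -0.08) and respiratory chain genes 26 of 33 (median -0.04), both with 0 counted. Sarcomere and Z-disc (25 measured, median 0.02), calcium handling (21, median 0.02), potassium and pacemaker channels (18, median -0.03), collagen and fibrous matrix (32, median -0.03) and the endoplasmic reticulum chaperones (20, median 0.04) held 0 counted genes as well.

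**Figure D4:**
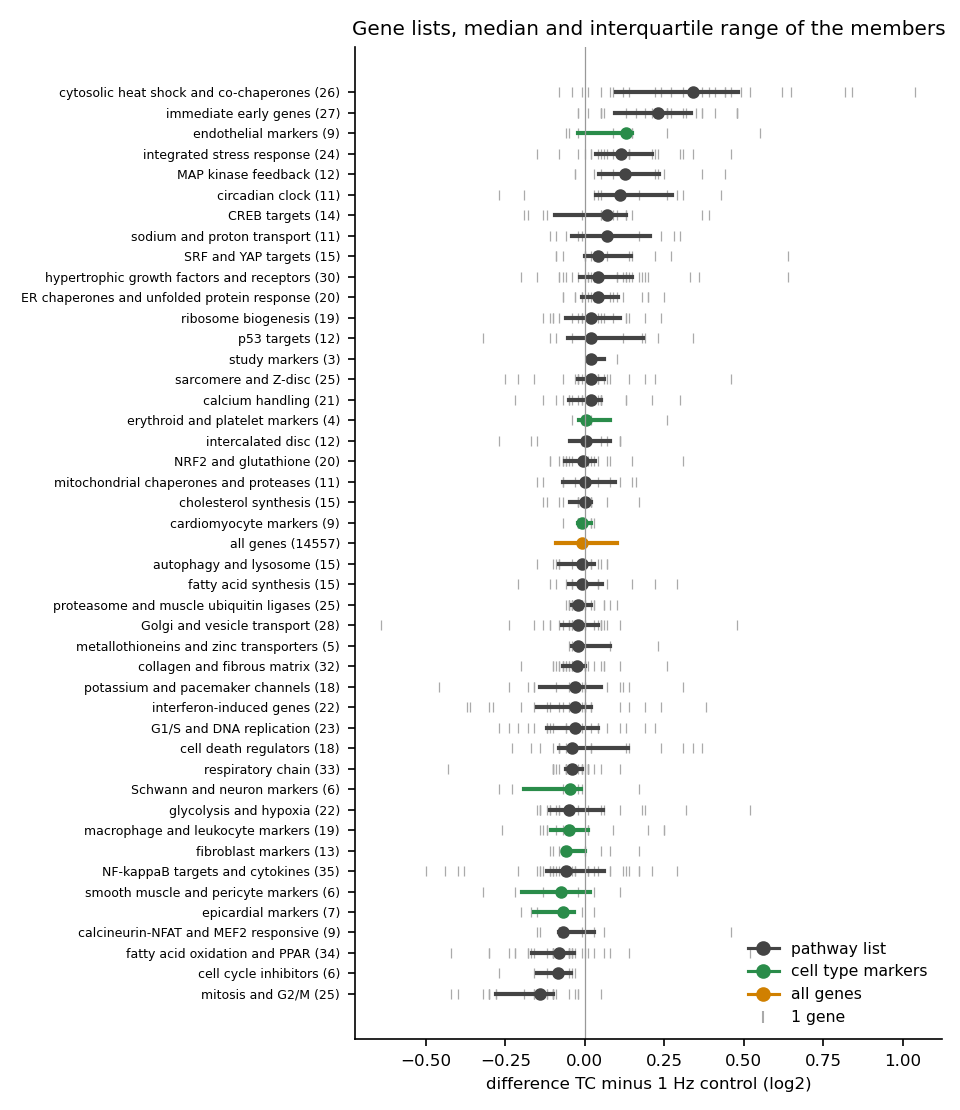
Differences of TC minus 1 Hz control (log2, x axis) for 36 pathway lists and 8 cell type lists with the number of measured genes in brackets; dots are medians, bars their interquartile ranges and ticks single genes. Heat shock (0.34) and immediate early genes (0.23) stand farthest to the right of all genes (-0.01), and mitosis (-0.14) farthest to the left.

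Markers checked the labelled cell type. All 9 measured cardiomyocyte markers, among them Tnnt2, Myh6 and Actn2, had levels above the upper quartile of clusters, and their median difference was -0.01 with 0 counted. The mean log2 level of these 9 was 11.82, 11.42 and 11.53 in TC and 11.79, 11.39 and 11.62 in control. Fibroblast markers were also bright (11 of 13 above the upper quartile, median difference -0.06). Macrophage and leukocyte markers (19 measured) had mean levels of 6.81, 7.13 and 7.16 in TC and 6.77, 7.12 and 7.28 in control, a median difference of -0.05. Endothelial markers (9 measured, none above the upper quartile) had mean levels of 5.44, 5.41 and 5.47 in TC and 5.29, 5.35 and 5.29 in control, a median difference of 0.13. Among them 1 was counted (11.1%, where 1.58% of all genes were counted higher), Tie1, a receptor kinase of endothelial cells. Tie1 stood at 0.55 (SE 0.21) and was dim at 4.88. It was not counted without replicate 1 of either group, TC replicate 2 or TC control replicate 3. Higher means in TC were found for 6 of the 9, and their differences ran from -0.06 to 0.55, with Cdh5 and Tek at -0.05 and -0.02. Whether a share of endothelial cells moved with any other gene named here was not tested.

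MicroRNA genes are shown with their mature sequences because Mir212 was among the 12 genes with the smallest p. The array carries 26 such genes with 1 symbol, 22 of them under the median cluster. It measures transcripts at the locus, so the mature form itself was not measured. Mature sequences from RefSeq (GRCr8) follow, with the seed, bases 2 to 8, in capitals.
rno-miR-212-5p: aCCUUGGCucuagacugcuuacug
rno-miR-212-3p: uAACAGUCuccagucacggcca
rno-miR-207: cUUCUCCUggcucuccucccuuu
rno-miR-221-3p: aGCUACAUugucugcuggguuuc
rno-miR-222-3p: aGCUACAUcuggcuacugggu
Mir212 lies on chromosome 10 and had 5.95, 5.85 and 5.73 in TC, against 5.42, 5.40 and 5.34 in control (0.46, SE 0.12, unadjusted p = 0.00343). It kept its call without any 1 of the 6 arrays. In neurons the miR-212 locus is known as a CREB target.

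Of the 26 microRNA genes 2 were counted higher and 1 lower, where 2.59% of all genes were counted, and the other two, Mir207 and Mir221, were chosen after their values were seen. Mir207 had 8.70, 8.24 and 8.62 in TC, against 7.87, 8.35 and 7.78 in control (0.52, unadjusted p = 0.0169). RefSeq places it inside the gene of the heat shock co-chaperone Dnaja1, so the signal of the 2 genes cannot be told apart. Dnaja1 had 11.55, 11.97 and 12.04 in TC, against 11.27, 12.06 and 11.29 in control. In both genes TC control replicate 2 was the highest control. Among the TC arrays replicate 1 was the highest in Mir207 and the lowest in Dnaja1. Mir221, on chromosome X, was dim and lower, with 4.18, 4.00 and 3.93 in TC against 4.46, 4.37 and 4.57 in control (-0.43, unadjusted p = 0.00355). RefSeq places Mir221 and Mir222 within longer loci of long non-coding RNAs, so this signal too cannot be assigned to the microRNA gene. Mir222, which shares its seed GCUACAU, overlapped between groups (2.80, 2.87 and 3.03 in TC, against 3.27, 2.85 and 2.70 in control) at a level under the lower quartile of clusters.

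The stretch arrays, which share no array with the pacing experiment, show how the same genes stood under another load. Stretch lasted 24 h and pacing 3 h, on other dishes and with another kind of control, so trigger and time cannot be told apart. Of the 12 genes higher in TC 7 had a higher mean in ST than in its control, and of the 12 lower in TC 2 had a lower one. A limma test of the TC effect against the ST effect over 18 arrays gave an unadjusted p under 0.05 for 18 of the 24. Over all 14557 genes it did so for 894. The 24 were chosen for small p in TC, whose values are part of this test. Their count was therefore partly set by the choice. None of the 24 had an adjusted p under 0.308. Cfap141 had the smallest p, with 0.63 (SE 0.14) in TC and -0.51 (SE 0.17) in ST, a difference of effects of 1.14. Cep19 stood at 0.34 (SE 0.10) in TC and 0.44 (SE 0.16) in ST, and Lims2 at 0.52 (SE 0.14) and 0.42 (SE 0.38). Mir212 was at 0.46 (SE 0.12) in TC and 0.05 (SE 0.12) in ST. Acta1, at 0.01 (SE 0.10) in TC, was at 1.13 (SE 0.41) in ST. Heat shock genes had a median of 0.34 in TC and -0.10 in ST, with 23 and 8 of 26 higher means, and Hspb1 stood at 0.41 (SE 0.18) and -0.29 (SE 0.24).

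**Figure D5:**
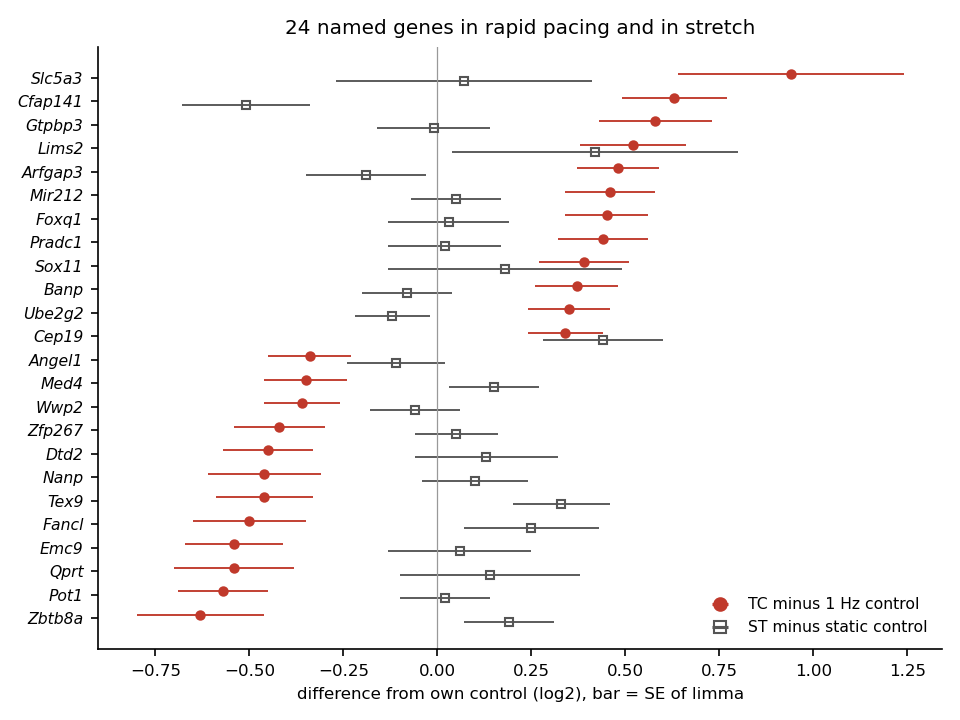
Differences from their own controls (log2, x axis, bars are the SE of limma) of the 24 named genes in TC (8 Hz, filled red circles) and in ST (open squares). The TC values lie 0.34 or more from 0 by the choice of genes, while most ST values lie near 0 or on the other side, with Cfap141 the farthest apart.

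With KB-R7934 during 8 Hz pacing, Slc5a3 averaged 7.60 ± 0.43 (SD over 3 arrays), where TC alone averaged 7.58 ± 0.49 and 1 Hz control 6.64 ± 0.32. Pot1 averaged 6.52 ± 0.14 with KB-R7934, 6.26 ± 0.07 in TC alone and 6.82 ± 0.16 in control. Banp averaged 7.94 ± 0.06, 8.28 ± 0.04 and 7.91 ± 0.13 in the same order. Dtd2, lower in TC, lay further from control with KB-R7934 (6.68 ± 0.09, 6.89 ± 0.11 and 7.34 ± 0.14). These genes are examples of the 24 named ones, which did not move alike. The mean log2 level of the 26 heat shock genes was 9.90, 10.27 and 10.31 with KB-R7934, 10.03, 10.26 and 10.32 in TC alone and 9.71, 10.17 and 9.70 in control.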

How the data were processed

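RNA of myocytes paced at 8 Hz (TC), at 8 Hz with KB-R7934 or at 1 Hz was hybridised to Rat Gene 2.0 ST arrays, 3 per group. The authors deposited log2 values per transcript cluster, pre-processed in Partek Genomics Suite; the normalisation and summarisation are not given in the sources used here. Array medians lay between 5.26 and 5.34, and the number of arrays limits the precision. Genes were named through the platform annotation, with 829 clusters of several symbols and 21032 unlisted ones left out of gene counts.

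TC and control were compared with limma 3.58.1 (R 4.3.3) over the 9 arrays, with Benjamini-Hochberg adjustment over 36685 clusters. The counting threshold, an unadjusted p under 0.05 and 1.2-fold, takes its limits from a figure legend with no word on correction. The methods name, for the arrays, a two-way ANOVA with no factors given and a Benjamini-Hochberg correction. ST was compared with its own control by limma over the 9 arrays of the stretch experiment. The TC effect was tested against the ST effect in 1 fit over 18 arrays. The labels call the replicates biological. Where nothing else shows separate cultures, p-values measure the spread between these samples.

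Named were, among brighter genes at the threshold without overlap, the 12 smallest p per direction; the study's markers; counted list members, at most 6; the 5 smallest p per direction with the replicate number as a block; and the 5 largest changes per direction. Further list members that were not counted, among them Hspa1b, Fos, Ppp1r15a and Ccnb1, were named outside these rules. Locus-only symbols (1534 genes, 76 counted) were counted and not named. Members and lists were chosen with earlier results of these data known. Scripts were tested on simulated data.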

Additional observations from a re-analysis of the deposited data

Results flagged for a closer look

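In 3 named genes all TC arrays lay on one side of their controls and all ST arrays on the opposite side of theirs. Cfap141 stood at 0.63 (SE 0.14) in TC and -0.51 (SE 0.17) in ST, a difference of effects of 1.14 (limma over 18 arrays, adjusted p = 0.308). Btnl5, a dim gene, stood at 0.84 (SE 0.27) and -0.34 (SE 0.16), a difference of 1.18 (adjusted p = 0.584). Fancl stood at -0.50 (SE 0.15) and 0.25 (SE 0.18), a difference of -0.75 (adjusted p = 0.65). None of the 3 differences passed the correction.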

How the results depend on the processing

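The count of 0 clusters at an adjusted p under 0.05 stayed 0 under every alternative run, including the fit with a replicate block. The 377 genes at the counting threshold became 28 at 1.5-fold and lay between 280 and 569 with 1 array left out. The 399 genes at an unadjusted p under 0.05 became 609 with the replicate block and 872 by the two-way ANOVA with it, and lay between 282 and 569 with 1 array left out. Of the 14557 genes 1214 had groups without overlap, and 4108 had 3 same-numbered differences that shared a sign (paired by number). Every gene without overlap also shares the sign, so the second limit is the looser one. The 2 counts do not measure a gain from pairing. The 2 heat shock genes counted became, in alternatives chosen after seeing the data, 12 with the replicate block, 6 with the block over only the 6 TC and control arrays, 7 with all 18 arrays, 4 with limma's trend and robust options, 4 by the ANOVA, 0 by the methods' t-test, and 0 to 15 with 1 array left out; the cause was not tested. Over all genes the same settings, in this order, counted 546, 451, 482, 315, 396 and 268, and 280 to 569 with 1 array left out. The differences of Acta1 and Nppa, not counted, changed sign without TC replicate 1 (-0.01 and -0.10) or TC control replicate 2 (-0.06 and -0.07). With 1 array left out they lay between -0.06 and 0.05 and between -0.10 and 0.13.

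The replicate numbers share the count of pooled technical replicates, but same-numbered deviations correlated at 0.25, 0.23 and 0.05 between TC and control over all clusters and at 0.41, 0.41 and 0.12 over the genes analysed. For replicate 3 of control and of TC with KB-R7934, which the fit also holds, the values were -0.01 and 0.09. A limit of 0.1 for every pair was thus met over the genes for TC and control. TC and TC with KB-R7934 met it over all clusters (lowest 0.13) and over the genes (lowest 0.19). It was not met for TC and control over all clusters, nor for control and TC with KB-R7934, and the fit without the block was kept. As a hint from the data, 8 of 9 arrays correlated best with an array of their own number. With the block 546 genes were counted, 337 of them among the 377, and the genes with the smallest p in it took in Stc1, a secreted calcium-regulating glycoprotein (9.55, 7.81 and 9.47 in TC, 8.97, 7.13 and 8.66 in control, unadjusted p = 0.00134), Scgb2a1 and, lower, Spata31a5l1, Spin2b and the guidance gene Ntn1. Of 45 named genes counted, 42 stayed counted with the block and 27 without any 1 array. Levels lay under the median cluster for 236 counted genes and under the lower quartile for 101 of them. With 3 arrays a group, small changes of dim genes are the least certain.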
